A study of Mus musculus with 18 samples.

Results

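The cytosolic ribosome is built from a small 40S and a large 60S subunit, each a scaffold of ribosomal RNA that carries its own set of proteins, named *Rps* and *Rpl* after the subunit. The genes for these proteins belong to the mRNAs that start with a run of pyrimidines, the TOP motif, through which the mTOR kinase and the RNA-binding protein LARP1 adjust how strongly they are translated. Neurons and glia of the spinal cord, like other cells, need these genes continuously, and mammalian genomes hold many reverse-transcribed copies of them, most of which are classed as processed pseudogenes.

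The genes described here are the cytosolic ribosomal protein genes of the mouse whose symbol is *Rpl*, *Rps* or *Rplp* followed by a number and at most an a, l or x, and that had at least 10 counts in every sample. Of 82 genes with such a symbol, 80 met the count minimum, out of 55573 genes in the count table. They are 49 large subunit genes and 31 small subunit genes. They were chosen by their symbol and selected on a single measured value, the count in every sample. No fold change or p-value decided which of these genes were kept. The gene family itself was chosen with earlier results of these data known, so its choice may not be independent of the comparisons below. Of the 80, 77 are annotated as protein coding, and *Rpl32l*, *Rpl6l* and *Rps4l* carry a processed pseudogene annotation in spite of their symbols.

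RNA was measured in 18 samples of the spinal dorsal horn (DHSC), taken from C57BL/6J mice of 8 to 12 weeks at 2 h after 2% formalin had been injected into the hindpaw on the same side. There were 6 females of the F1/proestrus group, 6 of the F2/metestrus group and 6 males, where F1 and F2 stand for a short and a long phase of reduced pain behavior and the stage was read from vaginal smears. All 18 mice had received formalin, so no value describes the uninjected DHSC. The study compared the female groups and the sexes. The numbers in the column names divide the samples into replicates 1 to 3 (27 to 35) and replicates 4 to 6 (188 to 196). Each series has 3 samples of every group. What the numbers stand for, and what sets these series apart, is not described.

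Total counts ranged from 73590509 to 125724156 per sample. Libraries of replicates 4 to 6 held fewer detected genes (30859 to 32409 with at least 1 count) than those of replicates 1 to 3 (32638 to 35469). Their total counts were lower too, with a median of 92057841 against 109449604, and the part of depth was not tested. The F1/proestrus replicate 5 stood apart from the others by its sensory ganglion neuron genes (*Avil*, *Scn10a*, *Mrgprd* and *Trpv1*), which summed to 322 CPM there (CPM, counts scaled to 1000000 per library with TMM library sizes) and to between 0.471 and 1.18 CPM in the other 17 samples. Dorsal horn neuron markers such as *Sst*, *Tac1* and *Pdyn* were present in every library, with a sum of 211 to 354 CPM. In bulk tissue, fewer cells of a type and less RNA per cell cannot be told apart.

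The ribosomal protein genes took a small share of each library, between 0.115% and 0.169% of all counts, or 103885 to 194963 reads per sample. The counts are of uniquely mapped reads, and a read that fits a ribosomal protein gene and a pseudogene copy equally well is not counted for either. Every 50-base stretch of each main transcript was therefore looked up in all annotated transcripts of GENCODE vM21. In the median gene 41.3% of the stretches occurred in no other gene, and for 50 of the 80 this share was under 50%. *Rps27*, a zinc finger protein of the small subunit, had the lowest share with 1.35%. *Rpl3l* shared no stretch with another gene (100%). A pseudogene held at least 1 stretch of 78 of the 80 genes, the median number of such pseudogenes was 8, and *Rpl7a* had the most with 120.

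The counts were concentrated in few genes. *Rpl4*, a large subunit protein that lines the exit tunnel, had a mean of 200.8 CPM and took 15.2% of the counts of all 80 genes. *Rps3*, which sits at the mRNA entry of the small subunit, had 118.9 CPM, *Rpl8* had 86.8 CPM, and the first 10 genes took 55.8%. At the other end, 7 genes were under 1 CPM and 43 between 1 and 10 CPM. Per kilobase of merged exon length, *Rpl4* had the highest level with 100.04 ± 9.14 CPM per kb (SD, n = 18), and other high levels were those of *Rpl8* with 63.9 ± 9.0, the stalk gene *Rplp1* with 52.7 ± 9.66 and *Rps15* with 45.8 ± 8.19. In this order of levels per length, neighbours such as *Rpl8* (51.3 to 82.1) and *Rplp1* (41.1 to 75.2) overlapped over the 18 samples. The lowest levels per length were those of *Rpl35a* with 0.261 ± 0.0535, *Rpl3l* with 0.291 ± 0.102, *Rps13* with 0.315 ± 0.0788, *Rpl9* with 0.326 ± 0.0530 and *Rps12* with 0.383 ± 0.0935. Most of the proteins occur in equal numbers in the ribosome, and these values describe uniquely mapped reads rather than transcript numbers. The order also depends on the length used, since merged exons can be much longer than the main transcript. These lengths were 3526 and 491 bases for *Rpl35a*, 2691 and 589 for *Rps13*, 3081 and 680 for *Rpl9* and 2027 and 494 for *Rps12*. Levels per main transcript were not computed. The median level per length was 1.38 in the 28 genes with less than 25% unique stretches, 2.40 in the 22 genes from 25% to 50%, 9.32 in the 19 genes from 50% to 75%, and 12.6 in the 11 genes from 75%.

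**Figure D1:**
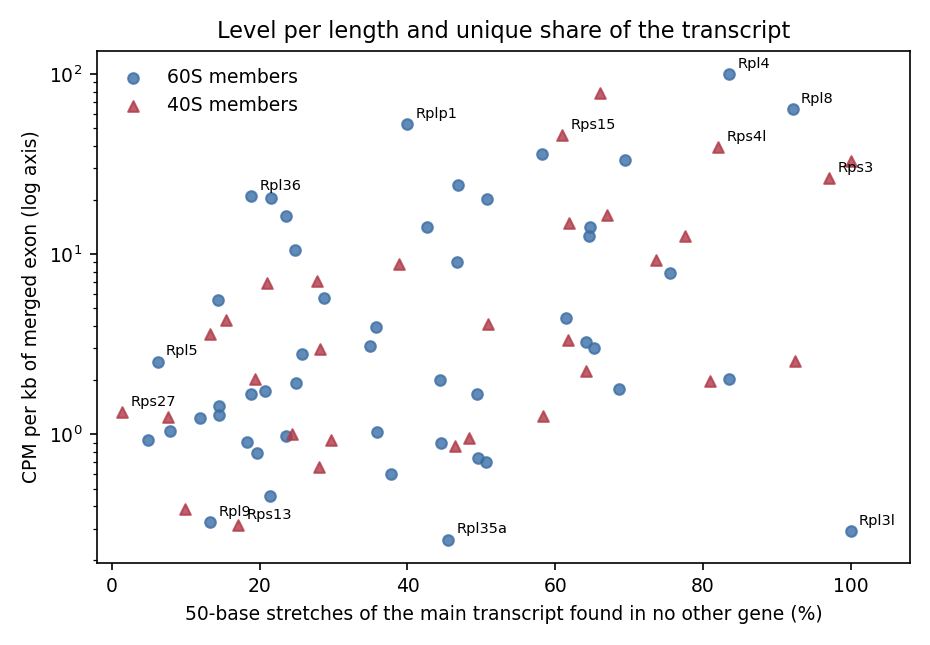
Mean level of each of the 80 genes over 18 samples (CPM per kb of merged exon, log axis) against the share of 50-base stretches of its main transcript that occur in no other annotated gene (%); circles are 60S and triangles 40S members. Levels per length rise with the unique share, from a median of 1.38 under 25% to 12.6 from 75%, and *Rpl3l* is low in spite of a share of 100%.

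Genes near the count minimum were few. *Rpl3l*, the muscle paralog of *Rpl3*, had between 23 and 91 counts, *Rpl17* between 24 and 95, and *Rpl38* between 35 and 66. The paralogs *Rpl10l* and *Rpl39l*, known from the male germ line, did not meet the minimum. *Rpl10l* had 0 counts in all 18 samples, which allows up to 3 counts or 0.0244 to 0.0399 CPM per sample. *Rpl39l* had between 0 and 8 counts, and was at 0 in 12 samples. These limits cover counting error only.

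The 5′ ends of the genes were searched for a TOP-like tract, a C followed by at least 4 further C or T, on the gene's own strand within 15 bases on each side of the RefSeq start. An entry was found for 58 of the 80 genes, and 40 of them (69.0%) held a tract, against 40.3% of all 27025 genes listed. Counted by promoter, 42 of 70 promoters of these genes (60%) held a tract, against 36.4% of all 32851 promoters listed. Shown here are windows of the genes with the highest and the lowest log2 fold change in the comparison of the replicate series described next. They were taken from genes with a single listed start and are given in GRCm38.p6, 5′ to 3′, with the longest tract in capitals.
Rpl41 (chr10:128549154-128549183, minus strand): cacacgggccggctcggaagtgacgacacc
Rpl35 (chr2:39005117-39005146, minus strand): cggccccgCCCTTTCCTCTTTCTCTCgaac
Rpl28 (chr7:4792950-4792979, plus strand): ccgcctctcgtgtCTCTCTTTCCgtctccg
Rpl18 (chr7:45718056-45718085, plus strand): tgcgtctcgcaggccgCTCTTTCCCCgccc
Rpl9 (chr5:65391417-65391446, minus strand): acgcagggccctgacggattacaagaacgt
Rpl5 (chr5:107900513-107900542, plus strand): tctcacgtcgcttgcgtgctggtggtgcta
Rps15a (chr7:118116133-118116162, minus strand): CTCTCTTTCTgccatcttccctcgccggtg
Rpl12 (chr2:32961697-32961726, plus strand): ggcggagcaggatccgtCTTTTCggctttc
*Rpl35* had the longest tract of these, 18 bases, *Rpl28*, *Rpl18* and *Rps15a* had 10 bases each and *Rpl12* had 6. None was found in these windows of *Rpl41*, *Rpl9* and *Rpl5*, which says only that the letters are not within 15 bases of the listed start.

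The largest difference among the ribosomal protein genes lay between the replicate series. The summed level of the 80 genes was 1208 ± 55.7 CPM in replicates 1 to 3 (SD, n = 9) and 1438 ± 143 CPM in replicates 4 to 6. In edgeR's quasi-likelihood test over all 24038 tested genes (adjusted p under 0.05), 45 of the 80 genes (56.2%) were higher in replicates 4 to 6 and 0 were lower. Among all tested genes 12.4% were called higher and 15.2% lower. The median log2 fold change of the 80 genes was 0.245, a fold of 1.19, against -0.0149 over all tested genes, and 69 of the 80 values were positive. At an unadjusted p under 0.05, 54 of the 80 were higher and *Rps15a* was lower, where 17.2% of all tested genes were higher and 21% lower.

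**Figure D2:**
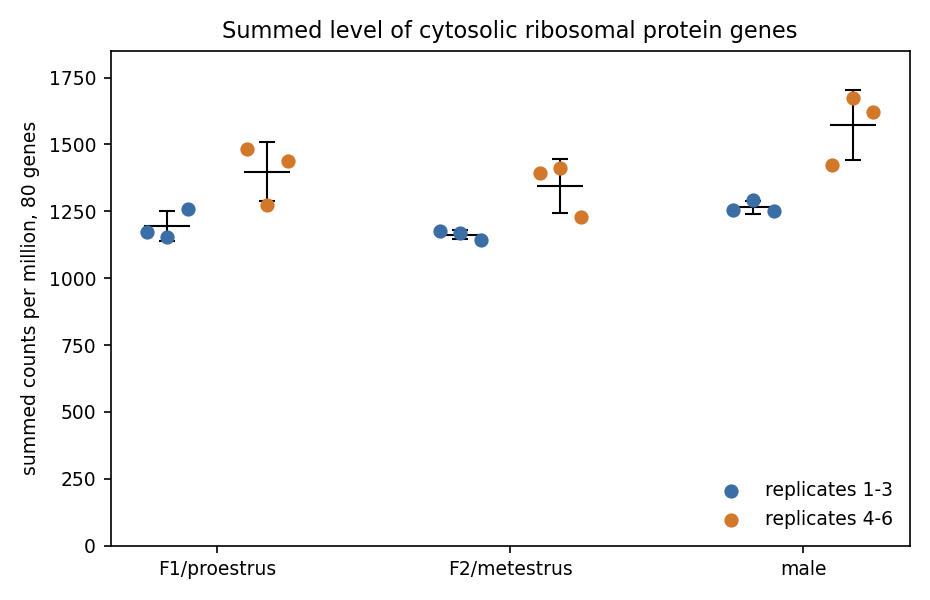
Summed level of the 80 ribosomal protein genes in CPM for each sample, by group, with replicates 1 to 3 in blue and replicates 4 to 6 in orange; horizontal bars are means and whiskers 1 SD (n = 3). In each group the 3 samples of replicates 4 to 6 sit above the 3 of replicates 1 to 3, and the highest sums, 1672 and 1620 CPM, are those of male replicates 5 and 6.

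Within every group the 3 sums of replicates 4 to 6 were higher than the 3 of replicates 1 to 3. In the males the sum was 1265 ± 24.1 CPM in replicates 1 to 3 and 1572 ± 131 CPM in replicates 4 to 6 (SD, n = 3), in F1/proestrus the values were 1195 ± 56.8 and 1398 ± 109, and in F2/metestrus 1163 ± 17.9 and 1344 ± 100. The series share no sample, and the F1/proestrus replicate 5 (1275 CPM) and the F2/metestrus replicate 6 (1229 CPM) were the lowest of replicates 4 to 6. Counted gene by gene, 75 of the 80 genes in F1/proestrus replicate 4, and 73 and 72 in male replicates 5 and 6, lay above their own mean over the 18 samples. In F2/metestrus replicate 2 this held for 6 of the 80. Without *Rpl4* and *Rps3* the sums ranged from 859 to 986 CPM in replicates 1 to 3 and from 925 to 1282 CPM in replicates 4 to 6.

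**Figure D3:**
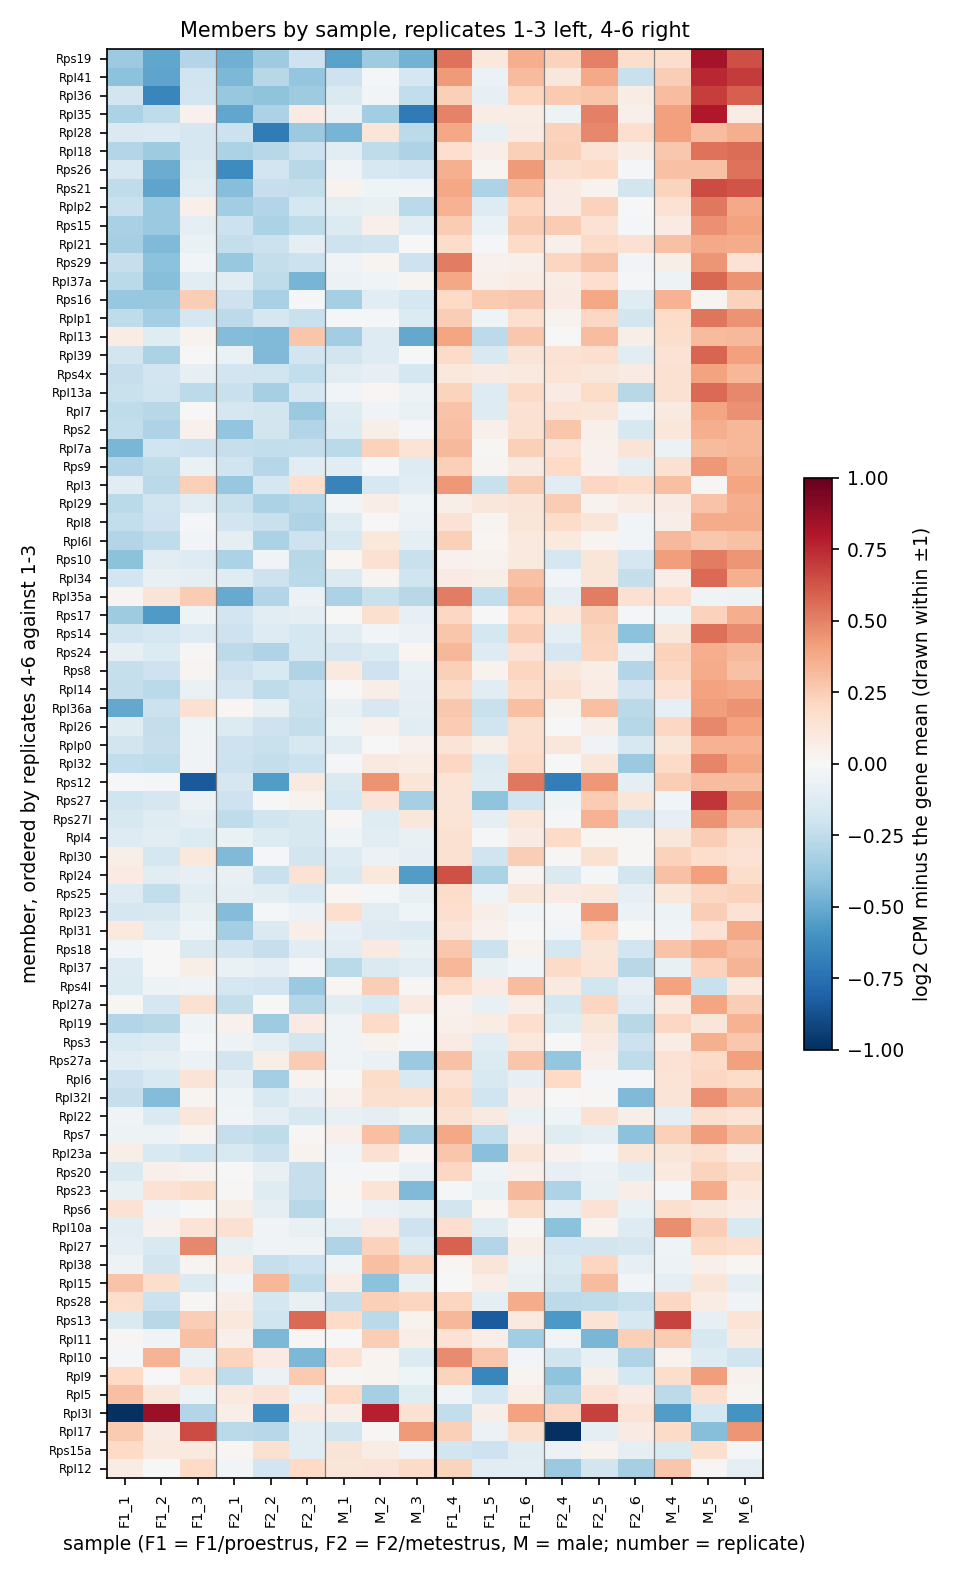
Log2 CPM of 77 of the 80 genes (rows, ordered by the fold change between the replicate series) minus the gene's mean, in the 18 samples (columns), with replicates 1 to 3 left and replicates 4 to 6 right of the black line. Most rows are blue on the left and red on the right, the strongest in male replicates 5 and 6, while the rows at the bottom, such as *Rpl5*, *Rps15a* and *Rpl12*, are not.

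*Rps19*, a small subunit protein needed to mature the 18S rRNA and mutated in Diamond-Blackfan anaemia, differed most. It ranged from 2.67 over a median of 3.01 to 3.36 CPM in replicates 1 to 3 and from 4.17 over 4.99 to 6.88 CPM in replicates 4 to 6. The series did not overlap, and the 3 highest values were those of male replicates 5 and 6 and of F1/proestrus replicate 4. The log2 fold change was 0.81 ± 0.09 (SE, edgeR adjusted p = 4.47e-06). Where the counts of its pseudogene rows were added to the gene, it was 0.30 (edgeR adjusted p = 3.55e-04).

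*Rpl41*, which codes for the smallest protein of the ribosome, ranged from 18.9 over 22.4 to 27.0 CPM in replicates 1 to 3 and from 23.3 over 33.9 to 45.8 CPM in replicates 4 to 6. The series overlapped in F2/metestrus replicate 6 and F1/proestrus replicate 5 on the one side and male replicates 1 to 3 and F1/proestrus replicate 3 on the other. Its log2 fold change was 0.60 ± 0.09 (SE, edgeR adjusted p = 4.18e-05).

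*Rpl36*, a large subunit protein, had 4.98 to 7.66 CPM with a median of 6.59 in replicates 1 to 3 and 7.39 to 12.7 CPM with a median of 9.39 in replicates 4 to 6. Only F1/proestrus replicate 5 fell below the highest value of the other series, and the log2 fold change was 0.57 ± 0.07 (SE, edgeR adjusted p = 1.40e-05). *Rpl35*, a protein at the tunnel exit with 4.91% unique stretches, had 0.683 to 1.18 CPM with a median of 0.894 and 1.07 to 1.94 CPM with a median of 1.17, with overlap, and a log2 fold change of 0.54 ± 0.14 (SE, edgeR adjusted p = 0.00547).

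In 6 genes every sample of replicates 4 to 6 was above every sample of replicates 1 to 3, against 1.44% of all tested genes, and all 6 were among the 45 that passed the test. They included *Rps19*, *Rpl18*, *Rps26*, *Rps4x* and *Rpl4*. *Rpl4*, with the most counts of all, had 179 to 194 CPM with a median of 185 in replicates 1 to 3 and 197 to 238 CPM with a median of 217 in replicates 4 to 6. Its log2 fold change of 0.22 ± 0.03 (SE, edgeR adjusted p = 7.50e-05) was a fold of 1.16, close to the median of the 80 genes.

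The subunits had similar values. Of the 49 large subunit genes 25 were higher, with a median log2 fold change of 0.245, and of the 31 small subunit genes 20 were higher, with a median of 0.234. The stalk proteins, which recruit the elongation factors to the large subunit, were all higher. *Rplp0* ranged from 50.2 over 52.9 to 60.9 CPM in replicates 1 to 3 and from 52.9 over 64.2 to 75.3 CPM in replicates 4 to 6, a log2 fold change of 0.25 ± 0.04 (SE, edgeR adjusted p = 3.97e-04). *Rplp1* had a log2 fold change of 0.36 ± 0.06 (SE, edgeR adjusted p = 1.80e-04) and *Rplp2* one of 0.40 ± 0.08 (SE, edgeR adjusted p = 5.73e-04), with overlap between the series in all 3 genes.

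Of the 4 genes on the X chromosome, *Rps4x*, a small subunit protein, and *Rpl39*, a short protein of the exit tunnel, were higher in replicates 4 to 6. *Rps4x* had 9.72 to 10.9 CPM and 12.2 to 15.2 CPM without overlap (log2 fold change 0.34 ± 0.04, SE, edgeR adjusted p = 1.43e-05). *Rpl39* had 2.11 to 2.88 CPM and 2.58 to 4.29 CPM (0.34 ± 0.08, SE, edgeR adjusted p = 0.00554). The log2 fold changes of *Rpl36a* (0.27 ± 0.11, SE) and *Rpl10* (-0.04 ± 0.10, SE) did not pass the test.

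*Rps6*, the small subunit protein phosphorylated by the S6 kinases downstream of mTOR, had 5.65 to 7.58 CPM in replicates 1 to 3 and 6.03 to 7.78 CPM in replicates 4 to 6, a log2 fold change of 0.08 ± 0.06 (SE) that did not pass the test. Neither did *Rpl5* (-0.07 ± 0.08) and *Rpl11* (-0.04 ± 0.11), the 5S RNA partners that bind MDM2 when ribosome assembly fails. *Rps27a*, which is made as a fusion with ubiquitin, had a log2 fold change of 0.14 ± 0.11, and *Rpl22* one of 0.13 ± 0.05 (edgeR adjusted p = 0.0542). Among the paralog pairs, *Rpl3* was higher (0.32 ± 0.11, edgeR adjusted p = 0.0404) and *Rpl3l* had -0.09 ± 0.24. *Rps27l*, an inducible relative of *Rps27*, was higher (0.23 ± 0.07, edgeR adjusted p = 0.0254), while *Rps27* had 0.23 ± 0.12 without passing, and *Rps4l*, a gene like *Rps4x*, had 0.16 ± 0.07 (edgeR adjusted p = 0.103). All these errors are SE.

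The lowest log2 fold changes were those of *Rpl12* (-0.15 ± 0.08, SE, edgeR adjusted p = 0.174) and *Rps15a* (-0.14 ± 0.05, SE, edgeR adjusted p = 0.0562). *Rps15a* ranged from 23.8 over 27.5 to 29.6 CPM in replicates 1 to 3 and from 22.3 over 24.1 to 28.8 CPM in replicates 4 to 6. It was called lower within F1/proestrus (-0.30, edgeR adjusted p = 0.0461), and over all samples with limma voom and without F2/metestrus replicate 3 or male replicate 5, while the GC and length correction left -0.03.

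**Figure D4:**
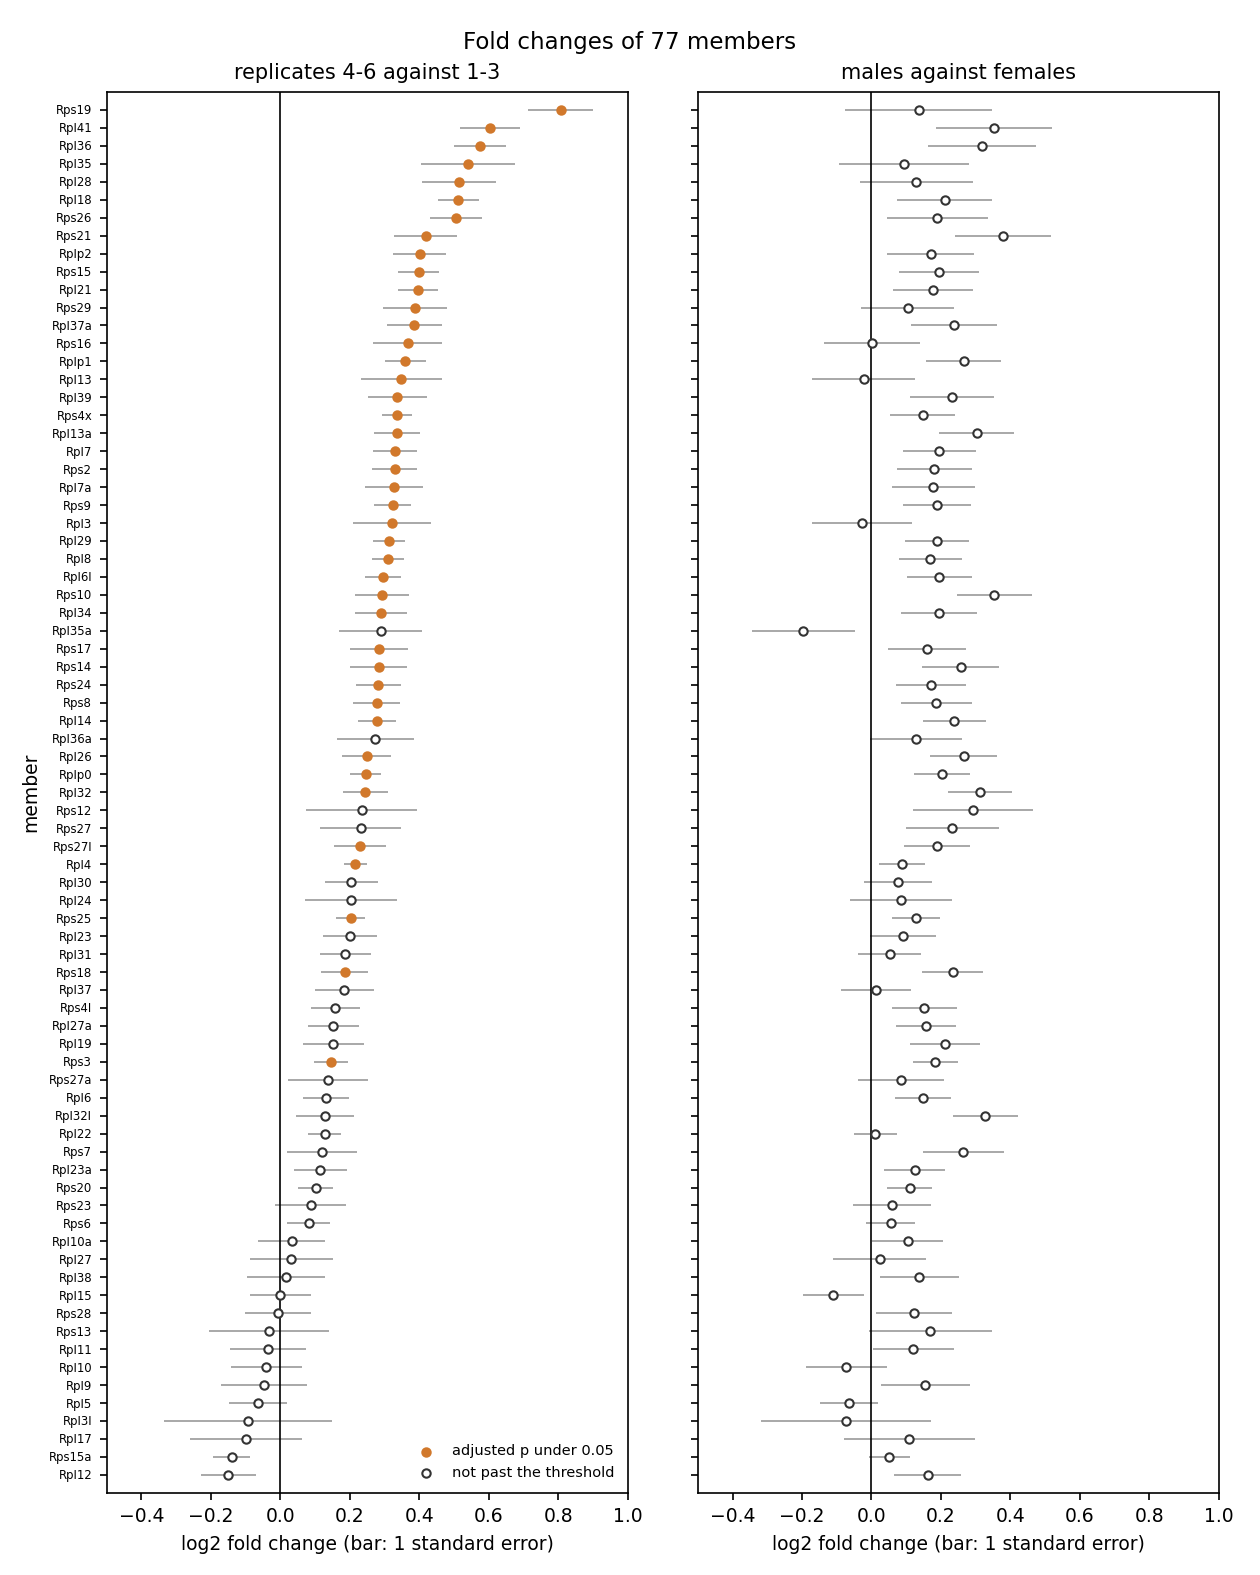
Log2 fold change (horizontal axis, bars 1 SE) of 77 of the 80 genes between replicates 4 to 6 and 1 to 3 (left) and between males and females (right), in the same order; filled points passed the edgeR test at an adjusted p under 0.05. On the left 42 points are filled, all above 0, and on the right none is filled although 70 of 77 lie above 0.

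The higher level in replicates 4 to 6 was seen in each group with errors pooled over the 18 samples. In the males 28 genes were higher and 0 lower, with a median log2 fold change of 0.304, where 3.03% of all tested genes were higher and 7.05% lower. In F1/proestrus 9 were higher and 1 was lower (median 0.235), against 1.86% and 3.09% of all. In F2/metestrus 8 were higher and 0 lower (median 0.189), against 1.16% and 2.63% of all. *Rps19* passed in all 3 groups, with 1.03, 0.74 and 0.65 in males, F1/proestrus and F2/metestrus. *Rpl35* passed in the males (0.81, edgeR adjusted p = 0.0375) and in neither female group (0.39 and 0.42). A test of the difference between groups called 0 of the 24038 genes. The effect in males minus that in females had a median of 0.132 over the 80 genes, with 65 positive values and 2 at an unadjusted p under 0.05 (1112 of all genes). The effect in F2/metestrus minus that in F1/proestrus had a median of -0.0197 with 0 at an unadjusted p under 0.05 (744 of all genes).

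Base composition and length moved with the comparison of the series. The ribosomal protein genes had a median exonic GC content of 51.3% and a median merged exon length of 1736.5 bases, against 49.4% and 3099 bases over all tested genes. Over all genes the median log2 fold change between the series went from -0.145 in genes under 40% GC to 0.0824 in genes from 55%. In the ribosomal protein genes it was 0.150 in the 22 genes of 45% to 50%, where all genes had -0.0408, and 0.290 in the 19 genes from 55%. With a correction of each library for GC content and length, 37 of the 80 genes were higher, 0 were lower, and the median was 0.169, where 10.8% of all tested genes were higher and 11.8% lower. The tract counts were 21 of 29 genes (72.4%) among those higher in replicates 4 to 6 and 19 of 29 (65.5%) among the others with an entry. Of the cell type markers, the oligodendrocyte precursor genes *Pdgfra* and *Cspg4* were both lower in replicates 4 to 6 (-0.35 and -0.41, sum 76.0 to 94.5 CPM against 58.8 to 73.3 CPM). Of 8 dorsal horn neuron genes 4 were higher (sum 211 to 276 CPM against 229 to 354 CPM). Other markers that differed included *Rbfox3* of neurons and *Tmem119* of microglia, which were higher, while *Snhg11* of neurons, *Cx3cr1* of microglia and *Flt1* of endothelium were lower. The part of these in the difference was not tested. Without the F1/proestrus replicate 5, 53 of the 80 genes were higher, against 14.8% of all tested genes, and the median was 0.296.

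Related genes were read beside the ribosomal protein genes. Between the series, 12.4% of all tested genes were called higher and 15.2% lower. Of 8 further ribosome components outside the symbol rule, 6 were higher in replicates 4 to 6 and 0 lower, with a median log2 fold change of 0.251. Among them, *Rpsa* had 0.36 ± 0.06 and *Rack1*, the signalling scaffold of the small subunit, 0.15 ± 0.04 (SE). Of 20 translation factors and other genes with TOP mRNAs, 11 were higher and 0 lower, with a median of 0.166. *Eef1g* (0.35 ± 0.04) and *Btf3* (0.37 ± 0.06) had the largest values, *Eef2*, the translocation factor, had 0.16 ± 0.04, and *Eef1a1*, which delivers the aminoacyl-tRNAs, did not pass (0.06 ± 0.04, edgeR adjusted p = 0.310).

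Of 18 genes of the mTOR pathway and of TOP mRNA control, 1 was higher and 7 were lower, against 12.4% and 15.2% of all tested genes. *Mtor*, the kinase, went from 119 ± 6.05 CPM in replicates 1 to 3 (SD, n = 9) to 75.1 ± 10.6 CPM in replicates 4 to 6, a log2 fold change of -0.67 ± 0.06 (SE, edgeR adjusted p = 3.81e-07). *Ddit4*, a stress-induced inhibitor of mTOR complex 1, went from 25.4 ± 6.43 to 8.92 ± 3.72 CPM (-1.52 ± 0.22, SE, edgeR adjusted p = 3.91e-05). *Rptor*, *Depdc5* and *Tsc1* had -0.29, -0.30 and -0.30, and *Akt1* was the gene that was higher (0.11 ± 0.03, SE). *Larp1*, the repressor that binds the TOP motif, had -0.01 ± 0.05 (SE) and did not pass the test.

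Of 26 genes of ribosome biogenesis, 9 were higher and 3 lower, with a median of 0.0556. *Myc* (0.35 ± 0.09) and the H/ACA protein gene *Gar1* (0.34 ± 0.08) were among the former, and *Polr1a*, the largest subunit of RNA polymerase I, was among the latter (-0.46 ± 0.08, SE). The shares over all tested genes, 12.4% higher and 15.2% lower, stand beside these and the following counts. Of 78 mitochondrial ribosomal protein genes 40 were higher and 0 lower (median 0.128), and of 98 tested nuclear genes with symbols of oxidative phosphorylation subunits 54 were higher and 1 lower (median 0.178). Of 291 rows named as ribosomal protein pseudogenes 124 were tested, 46 were higher and 3 lower (median 0.120). The sums over these pseudogene rows were 1010 to 1196 CPM in replicates 1 to 3 and 1064 to 1491 CPM in replicates 4 to 6, beside 1142 to 1293 CPM and 1229 to 1672 CPM for the 80 genes themselves. The 37 rows of mitochondrially encoded genes had 0 counts in all samples.

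**Figure D5:**
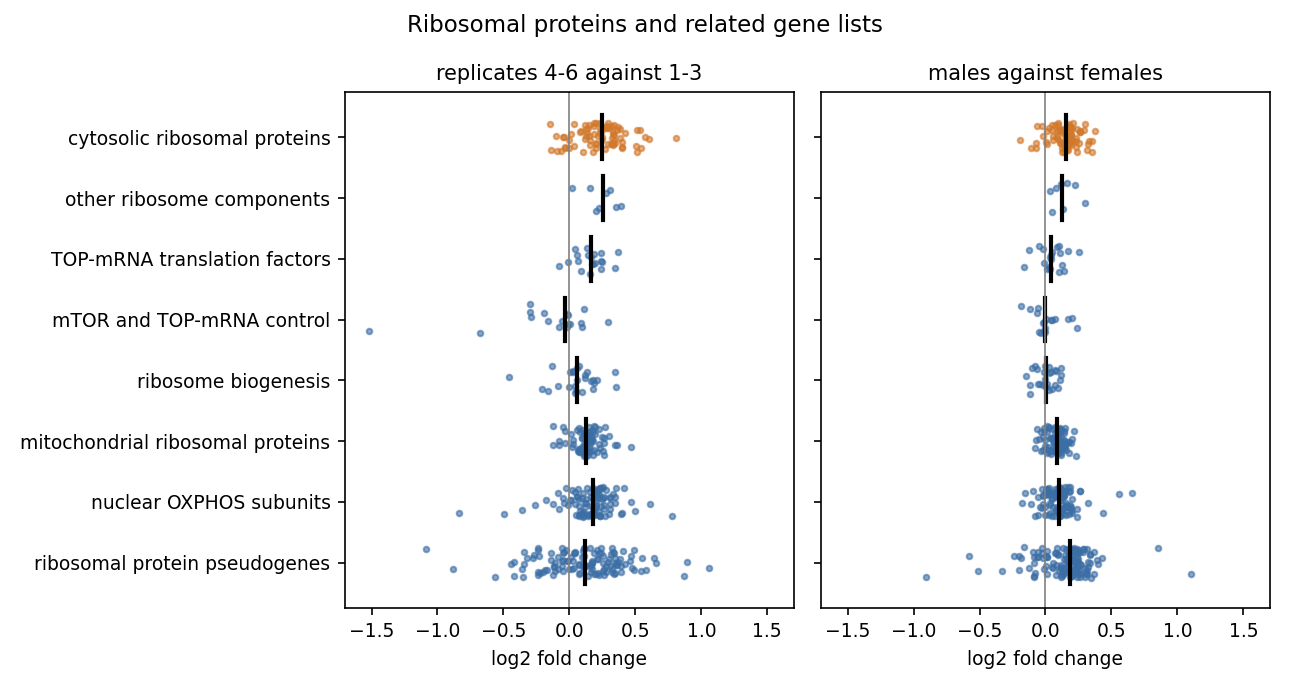
Log2 fold change of each tested gene (points) in the ribosomal protein genes and 7 related lists, with the median as a black bar, between replicates 4 to 6 and 1 to 3 (left) and between males and females (right). On the left the medians of cytosolic ribosomal proteins (0.245) and other ribosome components (0.251) are the highest and that of mTOR and TOP-mRNA control (-0.0364) is the lowest.

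The study asked how the DHSC differs between the sexes after formalin. Between males and all 12 females, 0 of the 80 ribosomal protein genes passed the edgeR test, where 49 of 24862 tested genes (0.197%) did. The values were nevertheless mostly higher in the males. The median log2 fold change of the 80 genes was 0.159 against -0.00132 over all tested genes, 73 were positive, and all 31 small subunit genes were. At an unadjusted p under 0.05, 17 of the 80 were higher in males and 0 lower, where 5.84% of all tested genes were higher at that level. The summed level was 1419 ± 188 CPM in males (SD, n = 6) and 1275 ± 124 CPM in females (n = 12), with overlap. Log2 fold changes between the sexes rose with GC content over all genes (Spearman 0.315) and in the 80 genes (0.399). With the GC and length correction, the median of the 80 genes was 0.109 with 68 positive. In that edgeR fit 12 of the 80 and 2260 of all genes had an unadjusted p under 0.05. The part of GC content and length in the difference was not tested.

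The smallest p was that of *Rpl32l*, a copy of *Rpl32* annotated as a processed pseudogene. It had 5.15 to 6.86 CPM with a median of 5.58 in the males and 3.67 to 5.71 CPM with a median of 4.78 in the females, a log2 fold change of 0.33 ± 0.09 (SE, unadjusted p = 0.00210, edgeR adjusted p = 0.234). *Rpl32* itself, a large subunit protein, had 31.3 over 35.0 to 44.6 CPM in males and 24.6 over 28.1 to 36.6 CPM in females, with 0.31 ± 0.09 (SE, unadjusted p = 0.00304, edgeR adjusted p = 0.268). *Rps10*, a small subunit protein, had 2.43 to 4.03 CPM with a median of 3.47 and 2.13 to 3.08 CPM with a median of 2.61, with 0.35 ± 0.11 (SE, unadjusted p = 0.00350, edgeR adjusted p = 0.276). The sexes overlapped in all 80 genes. The X-linked *Rps4x*, *Rpl39*, *Rpl36a* and *Rpl10* had log2 fold changes of 0.15 ± 0.09, 0.23 ± 0.12, 0.13 ± 0.13 and -0.07 ± 0.12 (SE), none of which passed.

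Within replicates 1 to 3 the median log2 fold change between the sexes was 0.0969 with 58 of 80 positive, and within replicates 4 to 6 it was 0.215 with 76 positive, and 0 genes passed in either. With the series as a covariate, *Rpl32* passed (0.31, edgeR adjusted p = 0.0492), as did 0.539% of all tested genes. In that fit 39 of the 80 had an unadjusted p under 0.05, and so had 16.4% of all genes, against 9.72% without the covariate. The number of genes at an unadjusted p under 0.05 depended on single male libraries, while the median stayed positive. Without male replicate 5 the median was 0.109 with 66 of 80 positive. In that fit 4 of the 80 and 6.18% of all genes had an unadjusted p under 0.05. Without male replicate 6 the median was 0.112 with 67 positive, and the counts were 3 of the 80 and 6.76% of all genes. With any 1 sample left out the median was 0.109 to 0.190. Schwann cell markers moved in the same direction, with 4 of 4 genes positive, *Ncmap* past the threshold (0.67, edgeR adjusted p = 0.00654) and sums of 874 to 2135 CPM in males and 576 to 1167 CPM in females. Of 5 neutrophil markers 4 were tested and all 4 were higher in males at an unadjusted p under 0.05 (median 1.26), 1 of them, *Mpo*, past the threshold (1.37, edgeR adjusted p = 0.0161), with sums of 4.21 to 22 CPM in males and 1.59 to 7.72 CPM in females. All 8 dorsal horn neuron markers were positive as well (median 0.272, 0 passed), with sums of 251 to 354 CPM and 211 to 315 CPM. Other marker lists went the other way, with 0 genes past the threshold. Motor neuron markers had 0 of 5 positive (median -0.620), red blood cell markers 0 of 5 (-0.144) and oligodendrocyte markers 1 of 4 (-0.0627). Sensory ganglion neuron genes, high in F1/proestrus replicate 5 alone, had 0 of 3 tested positive (-4.68). The part of these cell types in the difference was not tested. The other ribosome components had a median of 0.127, the mitochondrial ribosomal proteins 0.0904, the oxidative phosphorylation genes 0.100 and the pseudogene rows 0.185, with 0 genes past the threshold in these lists.

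Between the female groups, which the study compared because their pain behavior differed, 0 of the 80 ribosomal protein genes passed, as did 0 of all 24042 genes (0%) in the edgeR test. At an unadjusted p under 0.05 there were 2 of the 80 and 596 of all genes (2.48%), and DESeq2 called 0 of the 80 and 2 of all genes. With F2/metestrus set against F1/proestrus, the 80 genes had a median log2 fold change of -0.0575, and 11 of the 80 values were positive. This rested on single libraries, with a median of -0.00584 and 36 positive without F1/proestrus replicate 4, and -0.113 and 6 positive without F2/metestrus replicate 5. *Rpl17*, with 24 to 95 counts per sample, ranged from 0.560 over 0.669 to 0.913 CPM in F1/proestrus and from 0.261 over 0.511 to 0.616 CPM in F2/metestrus, which gave -0.49 ± 0.20 on the log2 scale (SE, edgeR unadjusted p = 0.0246). *Rps4l* had 33.4 to 45.4 CPM and 28.4 to 39.1 CPM with -0.21 ± 0.09 (SE, edgeR unadjusted p = 0.0331), and *Rpl10* 2.03 to 2.94 CPM and 1.56 to 2.48 CPM with -0.28 ± 0.14 (SE, edgeR unadjusted p = 0.0582). With the counts of pseudogene rows added, *Rpl17* had -0.10 and *Rpl10* -0.08, and *Rpl10* had -0.12 in replicates 1 to 3 alone and -0.44 in replicates 4 to 6 alone. The groups overlapped in each of these genes. The summed level was 1297 ± 136 CPM in F1/proestrus and 1254 ± 119 CPM in F2/metestrus (SD, n = 6), a difference smaller than the spread within either group.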

How the data were processed

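RNA was sequenced from 18 ipsilateral DHSC samples. The authors deposited raw read counts per gene, from uniquely mapped reads (mm10, Subread) that featureCounts assigned to exons; the labels name Subread 2.0.3. Whether the strand was used is not given in the sources used here. The methods name a TruSeq kit, the labels SMART-Seq amplification and Nextera XT. A second deposited table served only for its gene symbols; its fold changes and p-values are the authors' own comparison and were not used.

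The genes and lists were chosen with earlier results of these data known. Named are genes fixed for their role, the 5 largest called changes up and down (the 3 smallest p where fewer passed), the 5 highest and lowest per length and those next to the count minimum; others named were chosen after their values were seen, and a few genes are counted but not reported here. GENCODE vM21 held 55480 of the 55573 IDs. edgeR 4.0.16 (R 4.3.3) was used with filterByExpr (minimum count 10, minimum total 15), TMM and the quasi-likelihood test, adjusted over all tested genes by Benjamini-Hochberg at 5%. The series were compared with group in the fit, males against the 12 females, and the female groups in a fit of 12. CPM are counts scaled by the TMM library size. The test was checked on simulated data. The methods call the samples biological replicates. No 2 samples were identical, and all 45 pairs within groups differed beyond counting noise (chi-square per degree of freedom 15.3 or more). Same-numbered samples did not deviate together in every pair, so numbers were not taken as pairs. Alternatives were DESeq2 1.42.0, limma voom 3.58.1, other scalings and filters, GC and length correction, pseudogene rows added, the series as covariate and replicate blocks. Further alternatives were each series or female group alone, contrasts within groups in the fit of all 18 samples, and leaving out each sample.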

Additional observations from a re-analysis of the deposited data

Results flagged for a closer look

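In 81 sets of 6 samples (the summed level and 26 genes, each in the 3 groups), 1 held a sample far from the other 5, where chance gives about 1 in 20. *Rps27l* had 13.0 CPM in the F2/metestrus replicate 5, against 8.56 to 10.0 CPM in the other F2/metestrus samples.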

How the results depend on the processing

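Between replicates 4 to 6 and 1 to 3, the count of ribosomal protein genes called over all samples was 37 to 55 under other tools, scalings, filters and corrections and 41 to 53 with a sample left out, and their median log2 fold change stayed between 0.169 and 0.304 under all of them and within groups. Contrasts of 3 against 3 samples within a group were taken from a fit of all 18 samples, with errors pooled over them. There, 28 of the 80 genes and 2424 of all genes were called in males, 10 and 1188 in F1/proestrus and 8 and 911 in F2/metestrus. Fewer samples enter each of these contrasts. Genes that had not passed the test changed sign under some settings, and the cause was not tested. *Rps6* had -0.071 with GC and length correction and -0.024 within F1/proestrus, where *Rpl10* had 0.15, *Rpl3l* 0.029 and *Rps27* -0.0024. Within F2/metestrus *Rpl11* had 0.060, *Rps27a* -0.24 and *Rpl3l* 0.47, and within males *Rpl5* had 0.058. With voom *Rpl3l* had 0.035, and with pseudogene rows added *Rpl5* had 0.024 and *Rpl10* 0.15 (edgeR adjusted p = 0.0205). Leaving out single samples gave -0.071 to 0.031 for *Rpl11*, -0.089 to 0.0079 for *Rpl10* and -0.19 to 0.095 for *Rpl3l*.

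Between the sexes, the 49 genes called of all became 160 with DESeq2, 134 with the series as covariate (with 1 of the 80 genes), 31 with at least 10 counts in every sample, 13 against F1/proestrus and 22 against F2/metestrus alone, 16 in replicates 1 to 3 and 13 in replicates 4 to 6 alone, and 25 to 77 with a sample left out, with 25 and 30 without male replicates 5 and 4 and 77 without F1/proestrus replicate 5. *Rpl10* had 0.062 against F2/metestrus alone and 0.16 with pseudogene rows added. The replicate number as a block gave 148 genes, 0 of the 80 among them. Deviations of same-numbered samples from their group means correlated between -0.109 and 0.253 over 18 pairs. In 10 of 36 comparisons with another group, which held 6 samples each, a sample correlated best with its own number. Such deviations still hold the difference between the series. From the means of each group and series, they correlated between -0.130 and 0.141. Whether same-numbered samples were handled together was not tested. Between the female groups, DESeq2 called 2 genes, and the block and every other setting run called 0.

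Depth limits the genes under 1 CPM, and unique mapping limits all levels. Where in the gene the counted reads lie was not examined. The unique stretches were taken from the main transcript only, while the counts cover all exons of a gene.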
